A study of Mus musculus with 18 samples.

Results

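Myoblasts taken off the plate with a protease that works in the cold were compared with myoblasts that never left it before lysis. The cells were C2C12, an established line of mouse muscle precursors, and 6 of the 18 libraries of the series entered the comparison, chosen by their labels alone. In the 3 libraries labelled Cold-active-protease, wells had been rinsed with PBS, covered with 200 µL of the enzyme and shaken for 5 min at 4 °C before the cells were resuspended in lysis buffer. In the 3 libraries labelled Control, lysis buffer went straight onto the plate and the cells were scraped. Both groups came from medium with 20% fetal bovine serum, and no genotype or drug set them apart. The labels give neither the source of the enzyme nor what a lot is. Lots 1 to 3 are called replicates 1 to 3 here, and p-values rest on the spread between such libraries alone, which may be technical. The rinse, the wait, the shaking and the harvest came together with the enzyme and cannot be told apart from it. Gene expression was counted by BRB-seq, a bulk method in which each sample's cDNA receives a barcode before pooling and reads come from near the 3′ ends of mRNAs.

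Adherent cells are usually detached with trypsin at 37 °C, which cuts the extracellular parts of adhesion proteins while transcription and mRNA decay go on. Early-response genes can be switched on within such a wait by signals from the surface, from cell rounding or from stress. Enzymes that cut near freezing are used because most cellular reactions, transcription among them, are slow in the cold. Cold has a response of its own, in which RNA-binding proteins such as Cirbp and Rbm3 accumulate under mild cooling.

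The control libraries held 1582906 to 2172214 counts and the cold-active protease libraries 1775288 to 2480690. Mitochondrially encoded genes took 5.39% to 6.47% of control counts and 5.96% to 6.79% of cold-active protease counts. Of the myoblast markers, Des ranged from 823 to 884 CPM (counts scaled to a common library total) in control and from 865 to 957 CPM after the enzyme. Myod1, the master regulator of the muscle lineage, ranged from 44.2 to 55.0 CPM and from 59.7 to 64.2 CPM. Myf5 and Cdh15 were also present in every library, while Pax7 was at 0 to 1.26 CPM. The 5 macrophage markers summed to at most 5.53 CPM, the 4 endothelial markers to at most 0.473 CPM and the 4 epithelial markers to at most 2.82 CPM in any of the 6 libraries. The 4 fibroblast-enriched markers reached 1121 to 1282 CPM, nearly all of it from Ly6a, which C2C12 cells also express. The 6 markers of differentiated muscle summed to 154 to 185 CPM in control and 146 to 152 CPM after the enzyme. None of these markers was called.

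Few transcripts separated the cold-active protease cells from scraped cells. Of 10075 tested genes, 67 were called at an adjusted p under 0.05 in edgeR's quasi-likelihood F test, which is 0.665% of those tested. Of these, 20 were higher after the enzyme (0.199%) and 47 lower (0.467%). A further test of the same counts, DESeq2's Wald test, called 15 higher and 37 lower, and gave no adjusted p for Abracl, Supt4a, Firre, C030037D09Rik, Gm28438 and Gm10717. In all, 885 genes had an unadjusted p under 0.05 in edgeR. The changes were small, with a median size of 0.49 on the log2 scale among the higher and 0.51 among the lower calls, and only 3 rises and 5 falls exceeded 1. The 3 libraries of each group did not overlap in all 20 called rises and in 44 of the 47 called falls. Without regard to the test, the groups did not overlap for 6.83% of all tested genes in the higher direction and for 7.26% in the lower. The median log2 change over all tested genes was -0.0001. Counts are shares of a library, so less of an mRNA per cell and fewer cells that carry it cannot be told apart.

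**Figure D1:**
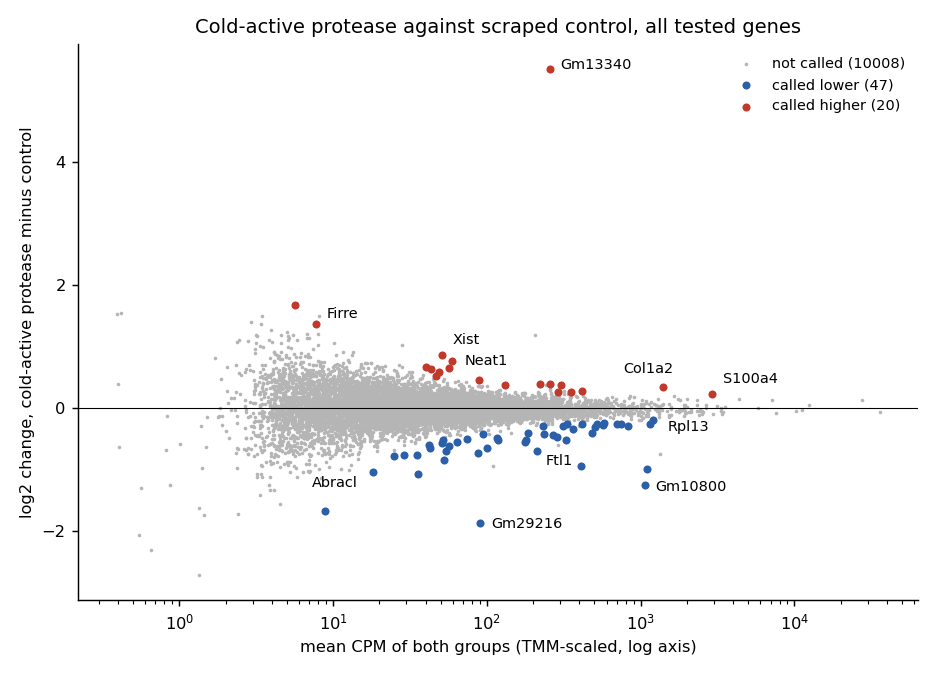
Each point is 1 of 10075 tested genes, with the mean TMM-scaled CPM of the cold-active protease and control groups on a log axis and the fitted log2 change between them on the vertical axis. Red and blue points are the 20 genes called higher and the 47 called lower. A single gene, Gm13340 at 5.52, stands far above the rest, and most called falls lie between -0.20 and -0.84.

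The largest group of related falls was in the machinery of protein synthesis. Ribosomal proteins build the small and large subunits of the cytosolic ribosome, and initiation factors bring mRNA and ribosome together. Many of these mRNAs begin with a C and a run of pyrimidines, the 5′ terminal oligopyrimidine tract, through which the cell regulates their translation as a group. The start regions of 6 of the called members are shown because they show both forms, with and without such a run. They span 20 bases before to 10 bases from a RefSeq start on GRCm38.p6, on the sense strand. Where a gene had several listed starts, the start with the longest run was taken. Capitals mark the longest C followed by at least 4 pyrimidines.
Rps6 (chr4:86857358-86857387, minus strand): gggttaagcggaagtcgggCCTCTTTTTCg
Rpl15 (chr14:18270977-18271006, minus strand): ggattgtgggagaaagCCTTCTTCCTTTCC
Rpl19 (chr11:98026904-98026933, plus strand): gggcttgggCTCTCCCCTTCgcagataatg
Rpl13 (chr8:123102330-123102359, plus strand): gtcaCTTCCCTTTCgcctgattttgattgg
Rps16 (chr7:28350669-28350698, plus strand): taaagcccgCTTCTgtcgtgacgtagcact
Rps4x (chrX:102189382-102189411, minus strand): aaagtctgaggctgggcggagcaacccagg
A run of this kind was present in the window of 8 of the 11 called members with an entry in the RefSeq table (72.7%), of 41 of 58 ribosomal protein genes (70.7%) and of 3439 of 7817 tested coding genes (44%). The search covered the sense strand only and allowed the run anywhere in the window. The shares count a run at any listed start of a gene. A match is a description of letters, not of a working tract.

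Of 32 tested small-subunit mRNAs, 3 fell and none rose, and of 46 large-subunit mRNAs 6 fell and none rose. Over all tested genes 0.467% were called lower and 0.199% higher. Most ribosomal protein genes have near-identical copies, described below, and 7.22% of all coding genes with such a copy were called lower. The medians over these lists were 0.005 and -0.06 on the log2 scale, beside -0.0001 over all tested genes. At an unadjusted p under 0.05, called ones included, 11 and 16 members were lower and 2 and 4 higher. Over all tested genes, 885 of 10075 were under that p, both directions together.

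Rps4x, a small-subunit protein encoded on the X chromosome, was at 389.6, 398 and 366 CPM in the control libraries and at 264, 274 and 271 CPM after the enzyme. All 3 treated libraries were below all control libraries, and the log2 change was -0.51 ± 0.06 (SE; adjusted p = 2.96e-07). Rps6, the small-subunit protein that S6 kinase phosphorylates, fell from 117, 109.9 and 101 CPM to 65.8, 65.9 and 64.9 CPM. The treated libraries were nearly equal and all below control, with a log2 change of -0.73 ± 0.12 (adjusted p = 6.59e-05). Rps16 fell from 553, 522 and 561 CPM to 384, 407 and 451 CPM, again without overlap, by 0.40 on the log2 scale (adjusted p = 1.5e-05).

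In the large subunit, Rpl10, which is added late in ribosome assembly, fell from 261, 271 and 274 CPM to 205, 195 and 203 CPM (log2 -0.42 ± 0.07, adjusted p = 6.59e-05). Rpl19 fell from 446, 377 and 396 CPM to 301, 324 and 336 CPM (log2 -0.34 ± 0.06, adjusted p = 0.00111). The libraries of both groups did not overlap for either. Rpl15, Rpl5, Rpl6 and Rpl13 fell by 0.41, 0.26, 0.25 and 0.20, with adjusted p-values of 0.03, 0.0146, 0.0402 and 0.0397. Rpl5 binds 5S ribosomal RNA, and the most abundant of these, Rpl13, went from 1286 ± 82.7 to 1122 ± 19.9 CPM (SD, n = 3). Of the 6 ways to leave out 1 library, a call ended for Rpl5 in 3 (0.173 without control replicate 3), Rpl13 in 5 (0.3 without control replicate 1), Rpl15 in 6 (0.204 without control replicate 3) and Rpl6 in 6 (0.203 without cold protease replicate 2), with the highest adjusted p in brackets, and DESeq2 did not call Rpl15 (adjusted p = 0.0571). The calls of Rps4x, Rps6, Rps16, Rpl10 and Rpl19 held in all 6.

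Among 38 tested translation factors, 3 fell and none rose, with a list median of -0.05. At an unadjusted p under 0.05, called ones included, 9 were lower and none higher, beside 885 of 10075 tested genes in either direction. Tpt1, the translationally controlled tumour protein, was at 1245, 1268 and 1244 CPM in control and 1054, 1015 and 1059.5 CPM after the enzyme (log2 -0.26 ± 0.05, adjusted p = 0.000291). Its libraries were tight in both groups and did not overlap. Eif3m, a subunit of the eIF3 scaffold, fell by 0.54 ± 0.13 (adjusted p = 0.0225), and Eif4g2, a relative of eIF4G that works in cap-independent initiation, by 0.25 ± 0.06 (0.0125). Both chains of the nascent polypeptide-associated complex, which binds new proteins at the ribosome exit, were lower. Naca fell from 542, 563 and 578 CPM to 425, 483 and 444 CPM (log2 -0.32 ± 0.06, adjusted p = 0.000894) and Btf3 from 58.4, 52.3 and 45.7 CPM to 28.5, 38.3 and 31.0 CPM (-0.65 ± 0.16, adjusted p = 0.0273). Leaving out 1 library ended the call for Eif3m in 3 (0.294 without control replicate 3), Eif4g2 in 4 (0.108 without control replicate 3) and Btf3 in 4 (0.223 without cold protease replicate 1) of 6 cases, and in none for Tpt1 and Naca.

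**Figure D2:**
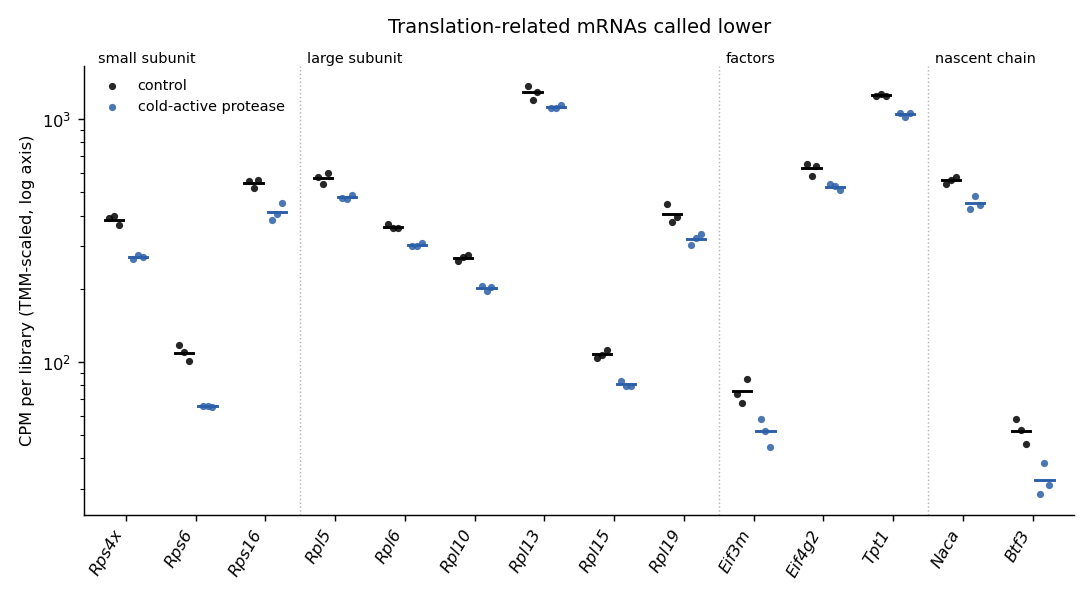
CPM of each library on a log axis for the 14 translation-related mRNAs called lower, with 3 control libraries in black, 3 cold-active protease libraries in blue and the group mean as a bar. In all 14 the blue points lie below the black ones, by 0.20 to 0.73 on the log2 scale.

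Near-identical copies touch most of this group. Ribosomal protein genes have many processed pseudogenes, and reads of 45 bases cannot always be placed. For 25 of 32 small-subunit and 33 of 46 large-subunit members, at least 20% of the 45-base stretches in the last 500 bases of the mRNA occur in another gene. Values of Rps4x, Rps6, Rpl6, Rpl10, Rpl13, Rpl19, Tpt1, Eif3m, Naca and Btf3 are uncertain for that reason. Rps16, Rpl5, Rpl15 and Eif4g2 stand under that limit. Outside this group, Supt4a, Bcl7c, Ppp1r14b, Tubb4b, Tmsb10, Myl6, Atp5g2 and Atp5h, described below, are uncertain in the same way. Pseudogenes and predicted genes included, 29 of the 47 falls pass that limit. Over all coding genes, 26 of 360 with such a copy were called lower (7.22%) and 1 higher, against 17 of 9356 lower (0.182%) and 12 higher without.

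Falls outside translation included single genes of iron storage, metabolism, the lysosome and protein folding. Ftl1, the ferritin light chain that lines the iron store, was at 254, 265 and 264 CPM in control and at 167, 168 and 146 CPM after the enzyme. The groups lay far apart, with a log2 change of -0.70 ± 0.08 (adjusted p = 2.96e-07). Gpx4, the peroxidase that reduces lipid peroxides in membranes, fell from 123, 142 and 153 CPM to 88.7, 105 and 102 CPM (log2 -0.51 ± 0.10, adjusted p = 0.00196). These were the only calls among 30 tested ferritin, iron and redox genes, whose median was -0.02. Both have pseudogene copies, and the call of Gpx4 ended in 2 of 6 cases when 1 library was left out (adjusted p up to 0.0618 without control replicate 3).

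Eno1, the glycolytic enolase, fell from 364, 321 and 318 CPM to 249.8, 233 and 235 CPM (log2 -0.48 ± 0.07, adjusted p = 1.97e-05), the only call among 27 genes of glycolysis and hypoxia. Its copies leave it uncertain too. Lamp1, the major glycoprotein of the lysosomal membrane, has no such copy and fell from 201, 230.1 and 198 CPM to 134, 149 and 148 CPM (log2 -0.55 ± 0.08, adjusted p = 1.29e-05). No treated library reached the lowest control library for either gene. Cyb5r3, a reductase of cytochrome b5, fell by 0.29 ± 0.05 (adjusted p = 0.00105), and Psmb2, a proteasome core subunit and the only call among 32 proteasome genes, by 0.29 ± 0.07 (0.0206). The call of Psmb2 ended in 3 of 6 cases (adjusted p up to 0.277 without cold protease replicate 3). The proteasome list had a median of -0.07, with 10 members lower and none higher at an unadjusted p under 0.05. Among all tested genes 885 of 10075 were under that p in either direction.

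Hspa8, the constitutive heat shock cognate protein, was at 219, 202 and 219.7 CPM in control and 159, 147 and 138 CPM after the enzyme, without overlap (log2 -0.52 ± 0.08, adjusted p = 5.33e-05). It was the only call among 25 heat shock proteins and cochaperones, whose median was -0.09, and it has near-identical copies. Of these 25 genes, 5 were lower and none higher at an unadjusted p under 0.05, beside 885 of 10075 tested genes in either direction. Hspa1b, an inducible Hsp70 gene, was at 63.5, 50.8 and 54.7 CPM and 48.1, 41.6 and 53.4 CPM. Its groups overlapped, with a log2 difference of -0.24 (95% interval -0.51 to 0.03, adjusted p = 0.648).

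Several small or regulatory proteins had the larger falls. Abracl went from 24.4, 25.4 and 24.0 CPM to 11.2, 11.5 and 13.2 CPM, a log2 change of -1.04 ± 0.21 (adjusted p = 0.00338), the largest fall among named coding genes without a near-identical copy. Sh3bgrl3, a small protein of thioredoxin fold, fell from 67.4, 66.4 and 67.4 CPM to 42.0, 31.3 and 40.2 CPM (log2 -0.84 ± 0.14, adjusted p = 0.000252). In both, the control libraries were nearly equal and stood apart from all treated ones. Ppp1ca, a catalytic subunit of protein phosphatase 1, fell from 121, 124 and 122 CPM to 78.0, 75.4 and 81.5 CPM (log2 -0.65 ± 0.11, adjusted p = 9.42e-05), and Ppp1r14b, an inhibitor of that phosphatase, by 0.43 ± 0.08 (0.000401). These 4 calls held whichever of the 6 libraries was left out.

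Other called falls were of single genes with varied functions. Nudt21, a subunit of cleavage factor I that influences where mRNAs receive their poly(A) tail, fell by 0.69 ± 0.14 (adjusted p = 0.00257). Supt4a, a subunit of an RNA polymerase II elongation factor, fell by 0.78 (0.0447), Bcl7c, a subunit of SWI/SNF remodelling complexes, by 0.77 (0.0166), and Hnrnpf, an RNA-binding protein of splicing, by 0.60 (0.0328). Ctxn1, a small membrane protein, fell by 0.77 (0.0242) and Cenpb, which binds a centromeric DNA box, by 0.26 (0.0151). Leaving out 1 library ended the call for Nudt21 in 1 (0.0598 without cold protease replicate 1), Cenpb in 3 (0.183 without control replicate 2), Bcl7c in 4 (0.162 without control replicate 1), Supt4a in 6 (0.305 without control replicate 3), Hnrnpf in 6 (0.327 without cold protease replicate 2) and Ctxn1 in 6 (0.191 without cold protease replicate 2) of 6 cases. DESeq2 did not call Hnrnpf (adjusted p = 0.0752). None of 39 splicing factors and Sm proteins was called, with a median of 0.0026.

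Cytoskeletal mRNAs showed 4 modest falls. Tmsb10, which binds monomeric actin, went from 618 ± 14.4 to 513 ± 25.9 CPM (log2 -0.27 ± 0.06, adjusted p = 0.0127). Tpm4, a tropomyosin that coats actin filaments, went from 766 ± 8.25 to 639.8 ± 33.2 CPM (-0.26 ± 0.05, 0.00257), Myl6, a myosin light chain, from 808 ± 22.1 to 679 ± 18.4 CPM (-0.25 ± 0.06, 0.00944) and Tubb4b, a beta-tubulin, from 211 ± 16.8 to 158 ± 11.2 CPM (-0.41 ± 0.08, 0.00307). No treated library overlapped control for any of the 4. Tmsb10 and Tpm4 were the only calls among 40 Srf targets and actin genes (median 0.0056), and Tubb4b the only call among 53 mitotic genes (median 0.0042). At an unadjusted p under 0.05, called ones included, 8 of the Srf targets and actin genes were higher and 6 lower. Of the mitotic genes 3 were higher and 5 lower, beside 885 of 10075 tested genes in either direction. Actb itself, the cytoplasmic beta-actin, differed by -0.07 with an interval of -0.15 to 0.02. Leaving out 1 library ended the call for Tpm4 in 1 (0.0761 without cold protease replicate 2), Tmsb10 in 2 (0.151 without cold protease replicate 1), Tubb4b in 2 (0.0555 without control replicate 1) and Myl6 in 3 (0.0763 without control replicate 2) of 6 cases.

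Few respiratory chain genes were called in this comparison. Of 36 nuclear genes of complex I, which takes electrons from NADH, only Ndufb6 was called, at 61.0, 55.7 and 65.5 CPM in control and 46.7, 39.1 and 37.3 CPM after the enzyme (log2 -0.56 ± 0.15, adjusted p = 0.0485). Of 43 nuclear genes of complexes II to V, the ATP synthase genes Atp5g2 (-0.50 ± 0.12, 0.0315) and Atp5h (-0.28 ± 0.07, 0.0439) were lower. Of 75 mitochondrial ribosomal proteins, only Mrpl55 was (-0.52 ± 0.13, 0.0435). The medians of these 3 lists were -0.01, -0.06 and -0.01. At an unadjusted p under 0.05, called ones included, 6, 1 and 4 members were higher and 5, 11 and 4 lower. Over all tested genes 885 of 10075 were under that p, both directions together. Cox8a, a short mRNA for a cytochrome c oxidase subunit, was at 252, 307 and 261 CPM and 217, 219.9 and 252 CPM, which did not pass the test (-0.26, interval -0.42 to -0.11, adjusted p = 0.146). Calls ended for Ndufb6 in 6 (0.294 without control replicate 3), Mrpl55 in 6 (0.235 without cold protease replicate 1), Atp5h in 5 (0.392 without control replicate 2) and Atp5g2 in 4 (0.353 without cold protease replicate 2) of 6 cases with 1 library left out. DESeq2 called none of these 4 (adjusted p = 0.122, 0.1, 0.0707 and 0.0694), and with only the 6 libraries in the fit Mrpl55 had 0.0561. None of 13 transcripts of the mitochondrial genome was called, though their median was 0.11, with 10 of 13 above 0. At an unadjusted p under 0.05, 4 of them were higher and none lower. Of these 13, mt-Nd4, a complex I subunit encoded there, was at 5991, 5697 and 5661 CPM and 5892, 5600.2 and 5877 CPM.

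Rises were fewer, and matrix genes were among those with the smallest adjusted p. Of 40 tested extracellular matrix genes, 3 rose and none fell, with a list median of 0.09. At an unadjusted p under 0.05, 9 were higher and 1 lower, beside 885 of 10075 tested genes in either direction. Col1a2, a chain of type I collagen, was at 1235, 1269 and 1187 CPM in control and 1656, 1574 and 1437 CPM after the enzyme. The lowest treated library was above the highest control library, and the log2 change was 0.34 ± 0.05 (adjusted p = 1.29e-05). Col12a1, a collagen that sits on the surface of fibrils, rose from 46.2, 44.0 and 43.4 CPM to 67.7, 67.5 and 74.0 CPM (log2 0.65 ± 0.13, adjusted p = 0.00266). Hspg2, the basement membrane proteoglycan perlecan, rose from 269, 256 and 267 CPM to 321, 329 and 379 CPM (log2 0.37 ± 0.07, adjusted p = 0.00069). All 3 calls held with any of the 6 libraries left out.

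Among cell surface receptors, Notch2 rose from 221, 180.2 and 181 CPM to 266, 257 and 232 CPM (log2 0.39 ± 0.08, adjusted p = 0.00376), the only call among 16 Notch pathway genes, whose median was -0.03. Lrp1, an endocytic receptor that takes up proteases and their inhibitors, rose from 412, 348 and 362 CPM to 438, 438 and 482 CPM (log2 0.28 ± 0.07, adjusted p = 0.0222). Neither gene's groups overlapped. Leaving out 1 library ended the call for Notch2 in 3 (0.0859 without control replicate 3) and Lrp1 in 4 (0.264 without control replicate 2) of 6 cases. None of 26 adhesion receptors and focal adhesion genes was called (median 0.02), and none of 24 extracellular proteases, inhibitors and thrombin receptors (median -0.04).

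Of 20 tested long noncoding RNAs, many of them kept in the nucleus, 4 rose and none fell. The list median was 0.20, with 18 of 20 members above 0, beside a median of -0.0001 over all tested genes. At an unadjusted p under 0.05, 9 members were higher and none lower, beside 885 of 10075 tested genes in either direction. This list was chosen with earlier results of these data known. Neat1, the scaffold of nuclear paraspeckles, was at 50.7, 42.5 and 39.1 CPM in control and 56.0, 84.4 and 82.1 CPM after the enzyme (log2 0.76 ± 0.15, adjusted p = 0.00257). Xist, which coats the inactive X chromosome, was at 44.9, 23.4 and 42.0 CPM and 61.2, 86.1 and 47.6 CPM (log2 0.87 ± 0.19, adjusted p = 0.00685). Treated replicate 3 of Xist stood only just above the highest control library, and replicate 2 was far above it. Firre, a nuclear RNA made from the X chromosome, rose by 1.37 ± 0.36 from 4.26 ± 1.17 CPM (adjusted p = 0.0499), and Zfas1, a snoRNA host, by 0.37 ± 0.09 from 114 ± 10.9 CPM (0.0397).

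None of the 4 calls held in every leave-out. They ended for Neat1 in 2 (0.087 without cold protease replicate 2), Xist in 2 (0.342 without cold protease replicate 2), Firre in 5 (0.343 without control replicate 2) and Zfas1 in 5 (0.296 without cold protease replicate 3) of 6 cases, and DESeq2 did not call Xist (adjusted p = 0.248) or Zfas1 (0.0653) and gave none for Firre. With only the 6 libraries in the fit, Firre had 0.0662. Malat1, the abundant RNA of nuclear speckles, was at 181, 188 and 264 CPM and 280.1, 274 and 274 CPM, without overlap, but did not pass the test (log2 0.38, interval 0.15 to 0.61, adjusted p = 0.173). A clone-named noncoding RNA, C030037D09Rik, rose by 1.67 ± 0.42 from 4.49, 2.44 and 1.41 CPM, with a call that ended in 5 of 6 cases (0.349 without control replicate 3). Gm26917, also noncoding, fell by 0.49 ± 0.10 (adjusted p = 0.00232). These last 2 genes, the Gm-numbered genes, Gstp-ps, Naca, Ppp1r14b, Cyb5r3, Cenpb, Myl6, Midn and S100a4 fall outside the rule for naming and were chosen after their values were seen. Over all 150 tested long noncoding RNAs, 5 were called higher (3.33%) and 1 lower, with a median of 0.09.

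The remaining rises were mRNAs of mixed function. Kmt2d, a histone methyltransferase that marks enhancers, rose from 78.9, 73.8 and 74.0 CPM to 96.6, 105 and 108 CPM (log2 0.45 ± 0.11, adjusted p = 0.0208), and Zmynd8, a reader of histone marks, from 45.6, 35.7 and 37.2 CPM to 58.8, 58.5 and 58.5 CPM (0.58 ± 0.14, 0.0189). Ccnl2, a cyclin found in splicing speckles, rose by 0.53 (0.0482) and Midn, the nuclear protein midnolin, by 0.26 (0.0447). Srebf2, the master regulator of cholesterol synthesis, was at 319.6, 320.4 and 319.6 CPM and 382, 388 and 382 CPM, a change of 0.26 ± 0.06 (0.0166). Its libraries were close to each other within each group, and it was the only call among 29 genes of cholesterol synthesis (median 0.04). Ube2n, a ubiquitin-conjugating enzyme for K63-linked chains, rose by 0.66 (0.0194), and Mustn1, a small nuclear protein of muscle and skeletal tissue, by 0.64 (0.0146).

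S100a4, a calcium-binding protein of motile cells, was the only called rise among coding mRNAs of at most 800 nt, from 2574, 2751 and 2709.7 CPM to 3171, 3081 and 3158 CPM (log2 0.23 ± 0.06, adjusted p = 0.0328). It has a near-identical copy, as judged from its 3′ end. None of these 8 calls held in every leave-out: they ended for Kmt2d in 4 (0.125 without control replicate 3), Zmynd8 in 5 (0.186 without control replicate 2), Ccnl2 in 5 (0.338 without control replicate 3), Midn in 5 (0.408 without cold protease replicate 2), Srebf2 in 6 (0.0961 without cold protease replicate 2), Ube2n in 5 (0.232 without control replicate 3), Mustn1 in 4 (0.209 without control replicate 3) and S100a4 in 6 (0.202 without control replicate 1) of 6 cases. DESeq2 gave adjusted p-values of 0.115 for Ccnl2, 0.0641 for Midn and 0.311 for S100a4, and the fit of only the 6 libraries gave 0.08 for Ccnl2.

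**Figure D3:**
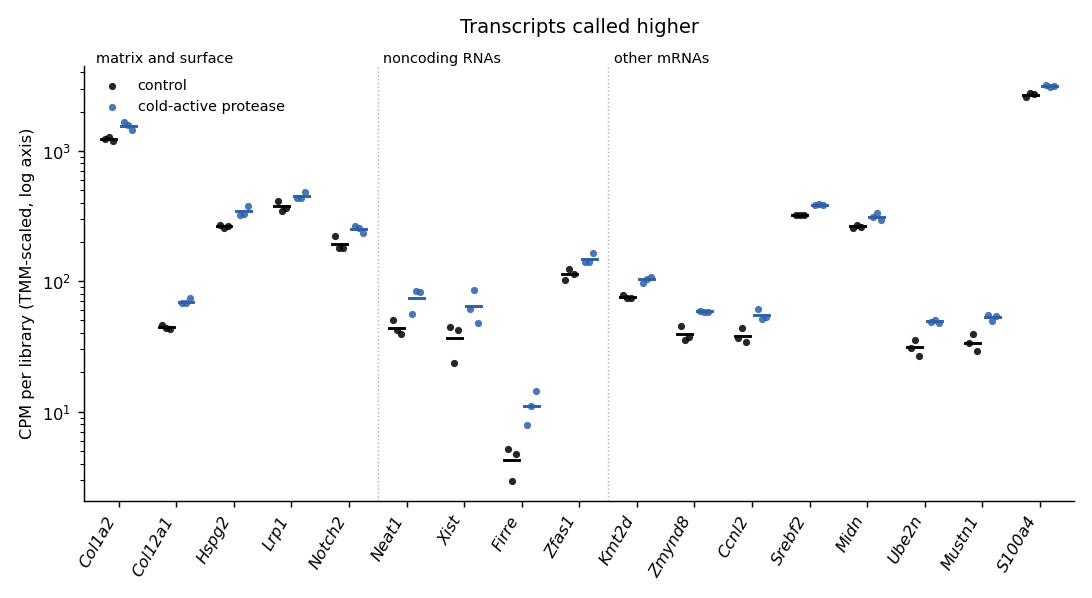
CPM of each library on a log axis for 17 of the 20 transcripts called higher, leaving out the 3 with Gm or clone names, with control in black, cold-active protease in blue and bars for group means. Blue points lie above black ones in all 17, close together in Xist, where the lowest treated library had 47.6 CPM and the highest control library 44.9 CPM.

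Called rises were mostly mRNAs longer than the median tested coding mRNA, and called falls mostly shorter ones. By the principal isoform of the GENCODE annotation, the 13 coding genes called higher had a median length of 5077 nt and the 43 called lower 968 nt, while all 9718 tested coding genes had 3046 nt. Of the coding rises, 8 were over 5000 nt, as were 19.9% of tested coding genes. Of the coding falls, 14 were at most 800 nt, as were 3.24%. These 14 include the repeat-bearing predicted genes Gm10800, Gm10801, Gm21738 and Gm10717, described below. They also include Eif4g2, by an annotated isoform of 742 nt. By class, 14 of 315 mRNAs up to 800 nt were lower and 1 higher. Between 800 and 1500 nt these counts were 18 and 1 of 1141, and between 1500 and 3000 nt 9 and 1 of 3293. Above 8000 nt none of 488 was lower and 5 were higher. The median log2 change was 0.01, -0.02, -0.01, -0.0009, 0.03 and 0.08 from the shortest to the longest of 6 classes. The median of the shortest class was thus not below 0, although that class had 14 falls. Without mRNAs of 800 nt or less, 17 rises and 32 falls were called, and without pseudogenes and genes with near-identical copies 12 and 14.

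The single large change was in a pseudogene. Gm13340 is an unprocessed pseudogene at chr2:22588103-22589647 on GRCm38, a nuclear copy of the mitochondrial gene mt-Co1 for cytochrome c oxidase subunit 1. It was at 16.7, 5.86 and 11.3 CPM in control and 521, 473 and 506 CPM after the enzyme, a log2 change of 5.52 ± 0.16 (adjusted p = 1.5e-32). All treated libraries were close to each other and far above control. Over their 1545 bases Gm13340 and mt-Co1 match at 97.6% of positions, and 30.6% of its 45-base stretches also occur in mt-Co1. The last 90 bases of both, positions 1456 to 1545 of the annotated transcripts, are shown because reads come from 3′ ends, with the 3 mismatches in capitals.
Gm13340: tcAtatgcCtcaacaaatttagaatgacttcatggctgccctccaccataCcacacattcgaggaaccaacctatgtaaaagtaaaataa
mt-Co1: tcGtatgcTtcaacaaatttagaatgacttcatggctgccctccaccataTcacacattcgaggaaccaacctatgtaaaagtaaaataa
The mitochondrial gene was not called. mt-Co1, named for its likeness, was at 483, 446 and 522 CPM and 557, 550.2 and 487 CPM, a log2 difference of 0.14 (adjusted p = 0.518). Whether reads counted on Gm13340 came from it or from the mitochondrial genome was not tested.

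The other called copies of mitochondrial genes went the opposite way. Gm29216 at chr1:24615706-24616197, 98.8% identical to part of mt-Co1, fell from 157, 132 and 139 CPM to 36.4, 43.7 and 36.2 CPM (log2 -1.86 ± 0.25, adjusted p = 2.08e-06). Gm28438 at chr1:24612775-24613119, 99.7% identical to mt-Nd3, fell from 12.2, 10.3 and 18.4 CPM to 5.14, 4.53 and 2.87 CPM (-1.67 ± 0.37, 0.0125). Nearly all 45-base stretches of both, 97.1% and 99%, occur in the mitochondrial gene. Gm29216 and Gm28438 were also below control after 30 min trypsin (log2 -1.45 and -1.47, adjusted p = 3.84e-05 and 0.0129). Their differences between the cold-active protease and 30 min trypsin did not pass the test (adjusted p = 0.648 and 0.92). Gm29216 was below control after 3 min trypsin too (-0.99, adjusted p = 0.00415), and its difference from the cold-active protease there did not pass (0.0777). Gm28438 was above control after 30 s trypsin (0.91, adjusted p = 0.0263), and after 3 min its difference from control did not pass (0.201). The call of Gm28438 ended in 3 of 6 cases (adjusted p up to 0.232 without control replicate 3), and those of Gm13340 and Gm29216 in none. Gm13340 had a mean of 11.3 ± 5.41 CPM in control (SD, n = 3), and of 205 ± 6.57 CPM after 30 min trypsin, 45.9 ± 8.36 after 30 s, 28.5 ± 11.9 with low trypsin and 14.2 ± 7.15 after 3 min. Among the remaining pseudogenes, Gm9351 rose by 0.39 ± 0.08 and Gstp-ps, a copy of a glutathione transferase, fell by 0.62 ± 0.13, with calls that ended for Gm9351 in 3 (0.102 without cold protease replicate 1) and Gstp-ps in 3 (0.102 without control replicate 2) of 6 cases.

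Another set of falls came from predicted genes that share a repeated sequence. Gm10800, Gm10801, Gm21738 and Gm10717 contain the same 49 bases, shown because reads from this stretch cannot be assigned to a single gene.
Shared stretch: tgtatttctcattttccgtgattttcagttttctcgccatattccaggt
Gm10800 at chr2:98666547-98667301 was at 876, 1946 and 1683 CPM in control and 577, 745 and 564 CPM after the enzyme (log2 -1.26 ± 0.17, adjusted p = 1.64e-06). Gm21738 fell by 0.99, Gm10801 by 0.94 and Gm10717 by 1.07. Control replicate 1 was the lowest control library for all 4, at 279.8, 713 and 608 CPM for Gm10801 across the control replicates, and for the last 3 its value overlapped the treated libraries. Without control replicate 2 the adjusted p was 0.0763 for both Gm10801 and Gm21738, and the call of Gm10717 ended in 4 of 6 cases (up to 0.216, without cold protease replicate 1). DESeq2 gave 0.338 and 0.258 for Gm10801 and Gm21738. Falls of these genes from control were not particular to the cold-active protease. For 30 s, 3 min, 30 min and low trypsin minus control, Gm10800 differed by -0.86, -1.18, -1.79 and -1.85. Gm10801 differed by -0.68, -1.15, -1.78 and -1.60, and Gm21738 by -0.63, -1.04, -1.64 and -1.70. Gm10717 differed by -0.71, -1.39, -2.06 and -1.85, of which the first did not pass the edgeR test (adjusted p = 0.0536).

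**Figure D4:**
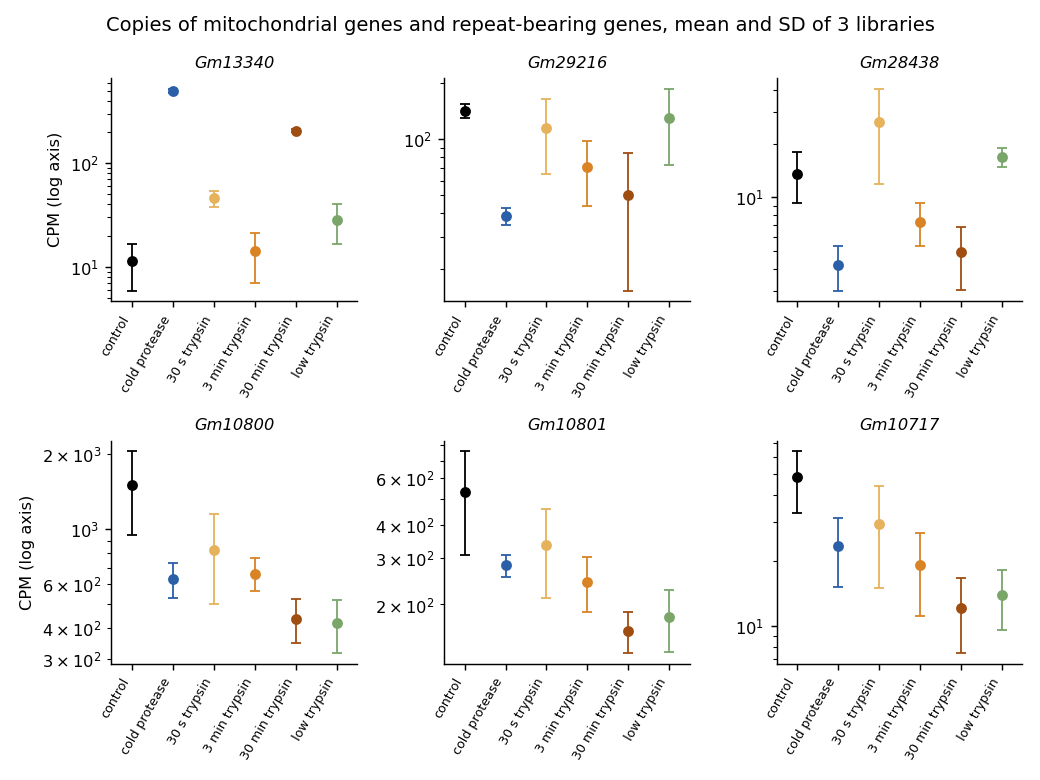
Mean and SD of 3 libraries, as CPM on log axes, for 3 nuclear copies of mitochondrial genes (top row) and 3 repeat-bearing predicted genes (bottom row) in the 6 groups. Gm13340 is highest with the cold-active protease. Gm29216 and Gm28438 have their lowest means there, at 38.7 and 4.18 CPM, near those after 30 min trypsin, at 50.2 ± 34.8 and 4.93 ± 1.91 CPM.

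Genes that usually report handling of living cells were not called. None of 23 immediate early transcription factors passed the test, and their median was 0.01. Hes1, a Notch-induced repressor that also responds early to stimulation, was at 43.6, 61.1 and 53.7 CPM in control and 65.8, 56.8 and 51.1 CPM after the enzyme. The groups overlapped, and the difference of 0.12 had a 95% interval of -0.13 to 0.38. Egr1, a growth-factor-induced zinc finger protein, was at 72.5, 93.3 and 75.4 CPM and 96.6, 105 and 75.2 CPM, a difference of 0.21 (-0.03 to 0.44). Junb, an AP-1 subunit, was at 202, 196 and 198 CPM and 235, 239 and 235 CPM. Its groups did not overlap, yet at 0.25 (0.09 to 0.41) it missed the threshold (adjusted p = 0.204). Fos, the other classical AP-1 partner, had 1, 2 and 1 counts in control and 4, 11 and 0 after the enzyme, too few to be tested. With 1 library at 0 and another at 11 the treated replicates disagreed.

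Other signalling lists gave no calls either. They were 15 MAP kinase feedback inhibitors (median 0.07), 24 YAP/TEAD targets (0.04), 17 chemokine and NF-kB genes (0.04), 13 BMP targets (-0.07) and 25 TGF-beta and growth factor genes (0.05). Ccn1, a matricellular YAP/TEAD target, was at 232, 241 and 226 CPM and 209.6, 238 and 236 CPM. Its difference was -0.03 with an interval of -0.17 to 0.11. Cxcl1, a neutrophil chemokine, was low in every library, at 4.49, 6.35 and 7.54 CPM and 5.60, 7.82 and 8.04 CPM. At that depth the interval was wide (-0.50 to 0.87), and a difference within it was not detectable.

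Stress programmes showed the same picture. None of 27 genes of the integrated stress response was called (median 0.02), nor of 24 ER chaperones (-0.04), 23 p53 targets (0.03) and 12 FoxO targets (0.01). Atf4, the transcription factor of the integrated stress response, was at 544, 545 and 519 CPM and 522, 545 and 559 CPM, a difference of 0.02 (-0.09 to 0.13). The groups overlapped almost completely. None of 16 cold-inducible genes was called, with a median of 0.005. Cirbp, the cold-inducible RNA-binding protein, was at 43.6, 51.8 and 53.7 CPM and 48.1, 64.2 and 40.8 CPM (0.05, interval -0.27 to 0.36). Rbm3, its relative, was at 18.6, 21.5 and 34.4 CPM and 22.4, 16.9 and 18.9 CPM (-0.39, interval -0.81 to 0.04), with control replicate 3 above all others. A p that misses the threshold does not show that these genes were equal in both groups, and the intervals give the range of the differences.

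Lists of cell identity and of S phase were likewise without calls. None of 17 myoblast transcription factors and receptors (median 0.01), 20 genes of muscle differentiation (-0.06) and 36 S-phase genes (-0.03) passed the test. The same held for 43 genes of the endoplasmic reticulum and membrane traffic (-0.02).

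Direct tests set the cold-active protease libraries against each trypsin group, all of which had received 200 µL of 0.25% trypsin at 37 °C. These were 30 s, 3 min and 30 min in trypsin, and low trypsin, in which the enzyme was removed at once and the cells then kept at 37 °C for 3 min. Enzyme, temperature and time differ together in these contrasts and cannot be told apart, and all 4 share the same cold-active protease libraries. Against 3 min trypsin, 286 genes were higher with the cold-active protease (2.84% of tested genes) and 87 lower (0.864%). Against 30 s these were 332 (3.3%) and 262 (2.6%), against 30 min 110 (1.09%) and 76 (0.754%), and against low trypsin 74 (0.734%) and 259 (2.57%).

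Many ribosomal protein mRNAs were higher with the cold-active protease than after trypsin. Small-subunit mRNAs were higher for 23 of 32 and lower for 1 against 3 min (median 0.55), and for 23 and 5 against 30 s (median 0.51). Against 30 min they were higher for 10 and lower for none, and against low trypsin for 8 and 2. Large-subunit mRNAs were higher for 26 of 46 against 3 min (median 0.38), 27 against 30 s, 11 against 30 min and 6 against low trypsin, and lower for none, 2, none and 1. Rps16, at 545 ± 20.8 CPM in control and 414 ± 34.2 CPM with the cold-active protease, had 241 ± 2.37 CPM after 30 s, 300.2 ± 8.11 after 3 min, 301 ± 10.7 after 30 min and 387 ± 15.1 with low trypsin. Its differences from the first 3 passed the test, at 0.77 ± 0.06, 0.46 ± 0.06 and 0.46 ± 0.06 (adjusted p = 3.24e-14, 1.51e-07 and 1.16e-06). That from low trypsin did not (0.09 ± 0.06, 0.535). Against 3 min the small-subunit genes with the smallest p were Rps19 (0.83 ± 0.05) and Rps12 (0.86 ± 0.05), and the large-subunit genes Rpl31 (0.88 ± 0.06) and Rplp2 (0.82 ± 0.05).

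Many nuclear genes of the respiratory chain were higher than after 3 min and 30 s trypsin, and few than after 30 min or low trypsin. Complex I genes were higher with the cold-active protease for 23 of 36 against 3 min (median 0.45), 20 against 30 s, 3 against 30 min and 2 against low trypsin, and lower for none, 2, none and 1. Complexes II to V had 20 of 43 higher against 3 min, 20 against 30 s, 7 against 30 min and 1 against low trypsin, with 1, 2, none and 2 lower. Ndufa6, an accessory subunit of complex I, was higher by 0.86 ± 0.07 against 3 min and by 0.60 ± 0.07 against 30 s. Cox8a had 139 ± 5.33 CPM after 30 s and 141 ± 15.9 after 3 min, against 229 ± 19.5 with the cold-active protease (differences 0.72 ± 0.08 and 0.70 ± 0.09). Sdhd, the membrane anchor of succinate dehydrogenase, went the other way, at -1.17 ± 0.11 against 30 s and -1.31 ± 0.11 against low trypsin.

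A few early-response genes were lower with the cold-active protease than after trypsin. Of 23 immediate early transcription factors, 4 were lower against 30 s, 2 against 3 min, 2 against 30 min and 3 against low trypsin, and none was higher. Egr1 passed the test against low trypsin (-0.45 ± 0.11, adjusted p = 0.00562) and in none of the other 3 comparisons, and Junb passed in none of the 4 (adjusted p = 0.207 to 0.718). Hes1 had 319.7 ± 24.7 CPM after 30 min trypsin and 84.7 ± 5.25, 84.0 ± 8.55 and 77.2 ± 5.98 CPM after 30 s, 3 min and low trypsin, against 57.9 ± 7.43 with the cold-active protease. All 4 differences passed the test, at -2.46 ± 0.10, -0.54 ± 0.12, -0.52 ± 0.12 and -0.41 ± 0.12 (adjusted p = 4e-26, 0.000818, 0.00251 and 0.0353). Ccn1 was lower by 1.07 ± 0.06 against low trypsin, by 0.87 ± 0.06 against 30 s and by 0.83 ± 0.07 against 3 min, while against 30 min the difference of -0.17 ± 0.07 did not pass (0.281). Srf, the transcription factor of actin genes, differed by -1.02 ± 0.18 against 30 s, -0.73 against 3 min (adjusted p = 0.0166) and -1.03 ± 0.18 against low trypsin. Atf4 and Cxcl1 were lower than after 30 min trypsin, at -0.61 ± 0.05 (adjusted p = 3.72e-12) and -2.52 ± 0.25 (1.41e-10), and 7 of 27 integrated stress response genes were lower there. Rbm3 was lower by 1.04 ± 0.19 against 30 s and by 0.88 ± 0.20 against low trypsin (adjusted p = 9.36e-05 and 0.00313).

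Genes called against scraped cells gave mixed differences here. Ftl1, Tpt1 and Hspa8 were lower with the cold-active protease than after 3 min trypsin (-0.42 ± 0.09, -0.26 ± 0.05 and -0.30 ± 0.09) and higher than after 30 min (0.61 ± 0.10, 0.38 ± 0.05 and 0.50 ± 0.09). Ftl1 and Hspa8 did not pass the test against 30 s (adjusted p = 0.983 and 0.173) or low trypsin (0.773 and 0.867). Falls of these genes from control were not particular to the cold-active protease. For 30 s, 30 min and low trypsin minus control, Ftl1 differed by -0.71, -1.30 and -0.78. Tpt1 differed by -0.54, -0.64 and -0.40, and Hspa8 by -0.74, -1.02 and -0.58. After 3 min trypsin, Ftl1, Tpt1 and Hspa8 differed from control by -0.28, -0.0013 and -0.23. Sh3bgrl3, Ppp1ca, Lamp1 and Rps4x were also called below control, and Lrp1 above it, in each of the 4 trypsin groups. For 30 s, 3 min, 30 min and low trypsin minus control, Sh3bgrl3 differed by -1.77, -0.92, -1.26 and -0.91. Lrp1 differed by 0.24, 0.35, 0.38 and 0.28. Ctxn1, Eif4g2 and Ube2n passed the test against control in none of the 4 trypsin groups. Col1a2 was higher than after 30 s (0.20 ± 0.05, adjusted p = 0.00363) and low trypsin (0.18 ± 0.05, 0.0298), while its differences from 3 min and 30 min did not pass. Neat1 was higher than after 30 s, 30 min and low trypsin (0.55 ± 0.15, 0.55 ± 0.15 and 0.82 ± 0.15). Noncoding RNAs as a list were higher for 4 of 20 against 3 min and 6 against 30 s, but lower for 5 against 30 min, among them Snhg12 (-1.003 ± 0.12) and H19 (-0.28 ± 0.06). Gm13340 was higher against each trypsin group, by 5.10 ± 0.16 against 3 min, 4.12 ± 0.14 against low trypsin, 3.46 ± 0.12 against 30 s and 1.28 ± 0.10 against 30 min. Of 13 mitochondrially encoded transcripts, 7 were lower and 2 higher against low trypsin, the lower ones including mt-Co2 (-1.19 ± 0.07) and mt-Cytb (-0.55 ± 0.04).

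**Figure D5:**
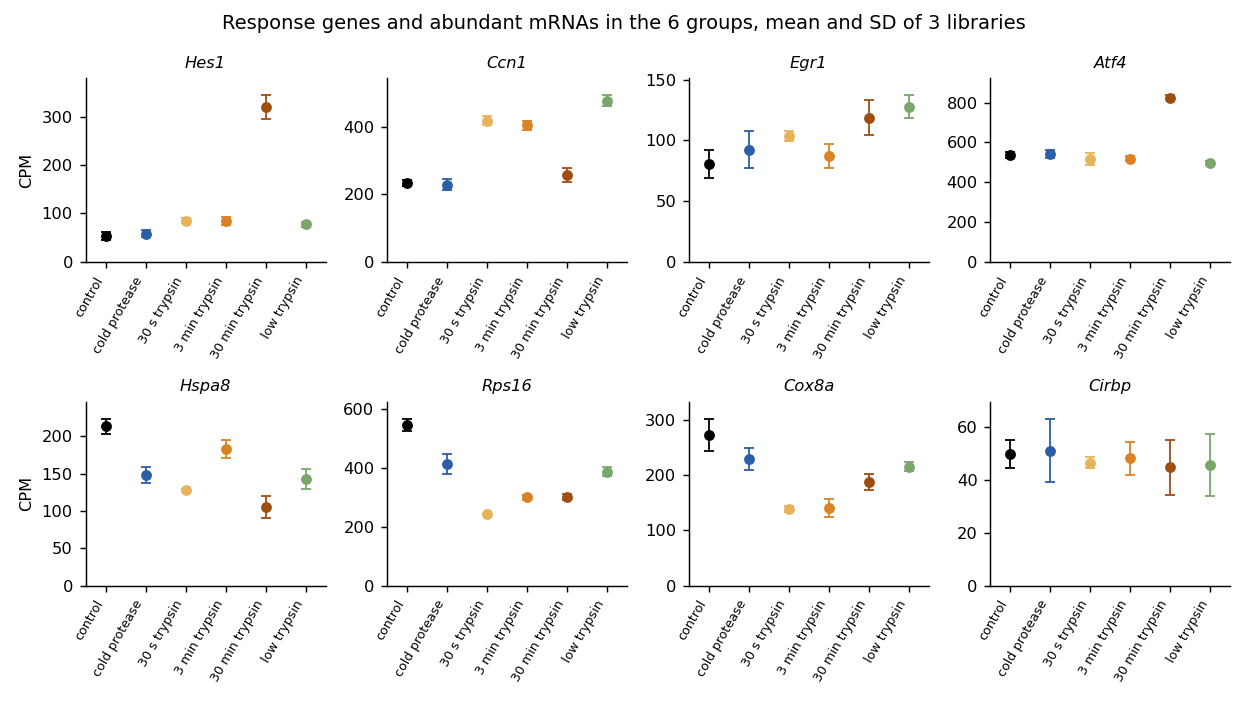
Mean and SD of 3 libraries, in CPM on linear axes from 0, for 8 of the genes described, in the 6 groups. The cold-active protease group sits beside control for Hes1, Ccn1 and Atf4, at 57.9, 228 and 542 CPM against 52.8, 233 and 536, and its mean lies between control and all 4 trypsin groups for Rps16 and Cox8a.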

How the data were processed

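The values are raw counts of 25957 genes in 18 libraries, 3 per group, analysed as deposited by the authors. The other deposited tables were not used here. Per the submitters' processing notes, reads passed through featureCounts 2.0.1, HISAT2 2.1.0, UMI-tools 1.0.1, Trim Galore 0.6.6, cutadapt 2.6 and DESeq2 1.28.1, named there without order. The sources used here do not say how strand and multiply placed reads were handled. The build was GRCm38, and the aligned read had 45 cycles.

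Genes passing edgeR's filterByExpr by group (10075, with at least 99.37% of each library's counts) were fitted in edgeR 4.0.16 under R 4.3.3. TMM scaling, all 18 libraries in 1 fit and the quasi-likelihood F test were used. Adjusted p-values are Benjamini-Hochberg over all tested genes, with calls under 0.05, and the common coefficient of variation was 6.08%. Values are TMM-scaled CPM, except for cell type markers and their sums, which are counts over the library total on the same scale. Intervals are 95% and follow from the fit. At these depths 3 counts correspond to 1.209 to 1.895 CPM. An exact permutation test of 3 against 3 libraries cannot go below p = 0.1. Library pairs within each group differed by more than sampling noise (chi-square of 1.62 to 2.48 per degree of freedom).

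Members and gene lists were chosen with earlier results of these data known. The rule for naming took the 15 largest rises and 15 largest falls among called genes that reached 10 CPM in either group without overlap of libraries, passing over pseudogenes and Gm or Rik names, every called member of 35 lists, and 16 genes always named. In the direct tests it took the called list members with the smallest p, printed for the lists described. Lengths, positions and copies came from GENCODE M21, and start regions from RefSeq. On simulated counts the fit was tested for recovery of known changes. Alternatives were other scalings, DESeq2 1.42.0, other filters, only the 6 libraries, the lot as a block, leaving out each library, and leaving out short mRNAs or genes with copies.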

Additional observations from a re-analysis of the deposited data

How the results depend on the processing

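The count of 67 calls lay between 49 and 80 under other scalings, filters, DESeq2, only the 6 libraries compared and without short mRNAs, with 15 to 29 higher and 32 to 52 lower. Without pseudogenes and genes with near-identical copies it was 26, of which 12 were higher and 14 lower, so the share of rises among calls went from 29.9% to 46.2%. Leaving out 1 library gave 35 (without cold protease replicate 1) to 54 calls (without control replicate 1), 9 to 19 of them higher and 26 to 35 lower. Of the 20 rises, 4 were called in all 6 such fits, and of the 47 falls 19. With the lot number as a replicate block 18 rises and 45 falls were called. Lots with the same number did not deviate together between the groups (r of 0.04, 0.03 and -0.01). Against 30 min trypsin, leaving out 1 library gave 118 (without 30 min replicate 2) to 168 calls. Against low trypsin it gave 206 (without cold protease replicate 2) to 283, and DESeq2 called 217. No called gene that the text names changed direction. List medians carry no test, and 71 of their values under an alternative moved by more than 1 SD between the treated replicates, while 454 did not. The small-subunit median went from 0.005 to -0.08 without short mRNAs, and that of MAP kinase feedback inhibitors from 0.07 to -0.04 without control replicate 2 and to -0.02 without control replicate 1. Depth limits genes at few counts, such as Fos.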
